A study of Medicago truncatula with 12 samples.

Results

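The step from 2 h to 6 h of salt stress in *Medicago truncatula* seedlings was described by setting the Salt_6h library against the Salt_2h library. Its genes were those with an FPKM (fragments scaled by sequencing depth and transcript length) of at least 1 in either library, and 22873 of the 54073 identifiers in the files met this rule. The seedlings were wild type, strain Jemalong A17, 4 weeks old, grown under long days, and the salt groups stood in Hoagland solution with 300 mM NaCl. Salt_0h, Salt_2h, Salt_6h and Salt_12h differed in the time of exposure, and drought (dry paper) and cold series with the same 4 times were sequenced alongside. Each of the 12 conditions had 1 library, so no difference between conditions has a replicate check and no p-value is given, and whether a library pools several plants is not given in the sources used here. The 3 libraries at 0 h, 1 from each series, were taken before any stress and served as the guide to the spread between libraries. No unstressed library at 2 h or 6 h was analysed, so the time under salt and the time of day cannot be told apart. Fewer cells of a type and less RNA per cell cannot be told apart either in RNA of whole seedlings.

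Salt reaches a plant first as a loss of available water and then as an excess of sodium in its cells. Calcium signals and abscisic acid carry the early response, and transport and osmolyte synthesis adjust over the following hours. Soluble sugars serve both as osmolytes and as transported carbon. The SWEET family, whose members let sugars pass through membranes down their gradient, is the only gene family for which the identifiers of these files could be paired with names, with *ACTIN* as a further named gene.

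The fragments counted on genes were 20874106 in Salt_6h and 22102989 in Salt_2h, against 13772201 in Salt_0h and 12206725 to 25438786 over all 12 libraries. For a transcript 1 kb long, the floor of 3 fragments was 0.131 FPKM in Salt_6h and 0.126 FPKM in Salt_2h. Fragment numbers were recovered as whole numbers for all 37274 identifiers with a value above 0, and the intervals below cover counting error only. At the edge of the rule, 383 genes had a higher value between 1 and 1.1 FPKM and 430 identifiers lay just outside it, between 0.9 and 1 FPKM.

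Between the 2 time points, 1175 genes were at least 2-fold higher at 6 h and 1080 were at least 2-fold lower. These were 5.14% and 4.72% of the 22873 genes, or 9.86% together. The median log2 ratio over all genes was 0.06. FPKM is scaled to the depth of each library, so this median cannot show whether all genes moved together. The 1175 higher genes had a median FPKM of 3.75 in Salt_6h and 1.27 in Salt_2h, and the 1080 lower genes 1.44 in Salt_6h and 4.69 in Salt_2h. Most changed genes were therefore of low abundance. The higher genes held 1.23% of all FPKM in Salt_0h, 1.74% in Salt_2h, 4.68% in Salt_6h and 6.57% in Salt_12h. The lower genes held 4.82%, 5.63%, 2.12% and 1.62% at the same times. The shift of both sets thus lasted to 12 h in sum.

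Large changes were fewer and leaned to the lower side. At least 4-fold differences were seen in 228 higher and 290 lower genes, and at least 8-fold differences in 91 higher and 118 lower genes. Among the 6293 genes that reached 20 FPKM in Salt_6h or Salt_2h, 195 were higher and 253 lower at 2-fold, whereas 16 were higher and 65 lower at 4-fold and 2 were higher and 18 lower at 8-fold.

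**Figure D1:**
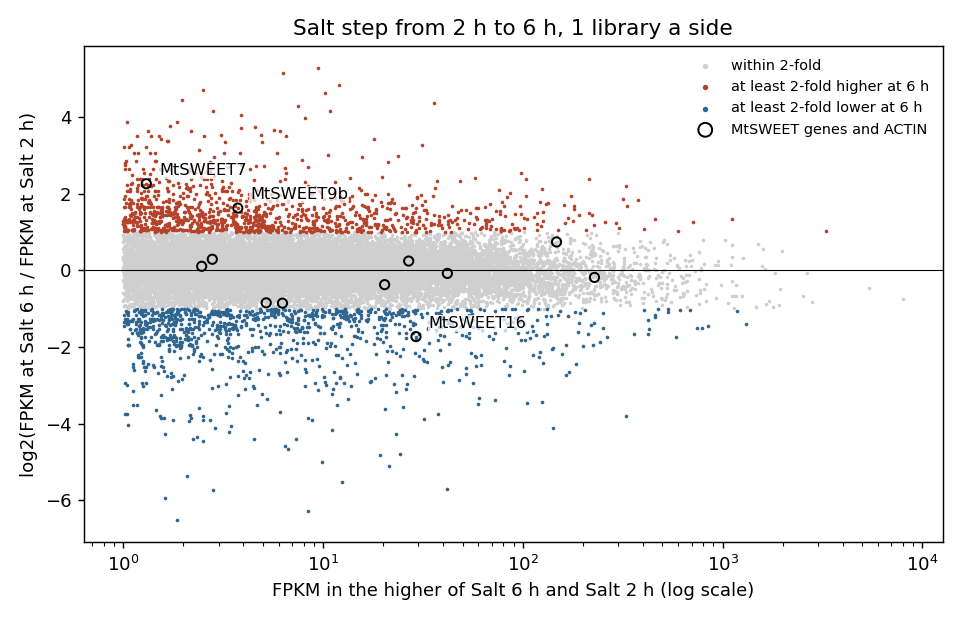
Log2 ratio of FPKM at Salt_6h over Salt_2h (vertical axis) against the higher FPKM of the pair (horizontal axis, log scale), with 1 point for each gene; the 82 genes at 0 in 1 of the 2 libraries have no ratio and are not drawn. Red points are the genes at least 2-fold higher at 6 h and blue points those at least 2-fold lower, and open circles mark *ACTIN* and the 11 *MtSWEET* genes that met the rule, of which *MtSWEET7* and *MtSWEET9b* lie above and *MtSWEET16* below the 2-fold bounds.

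The same 2-fold rule was then applied between the libraries at 0 h. Drought_0h against Cold_0h gave 2.34% of genes, Salt_0h against Cold_0h gave 6.3% and Salt_0h against Drought_0h gave 6.05%. How far the step stood above these shares depended on the level of the gene. Between 1 and 2 FPKM, the step passed 2-fold in 22.0% of genes, against 12.1% to 27.9% between the 0 h libraries, so at this level the step was inside the range of the unstressed pairs. Between 2 and 5 FPKM the shares were 11.8% in the step and 3.20% in Drought_0h against Cold_0h. Salt_0h against Cold_0h and against Drought_0h gave 10.4% and 10.0% at this level, close to the step. Between 5 and 20 FPKM the shares were 6.48% in the step and 0.499% to 1.92% in the 0 h pairs. At 20 FPKM or more, 448 genes (7.12%) passed in the step, against 3, 12 and 14 genes in the 0 h pairs. At 100 FPKM or more, 43 genes were higher and 68 lower in the step, of 1030, and no gene passed between any 0 h libraries. The 0 h libraries were shallower than those of the step, which widens their counting error at low levels.

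**Figure D2:**
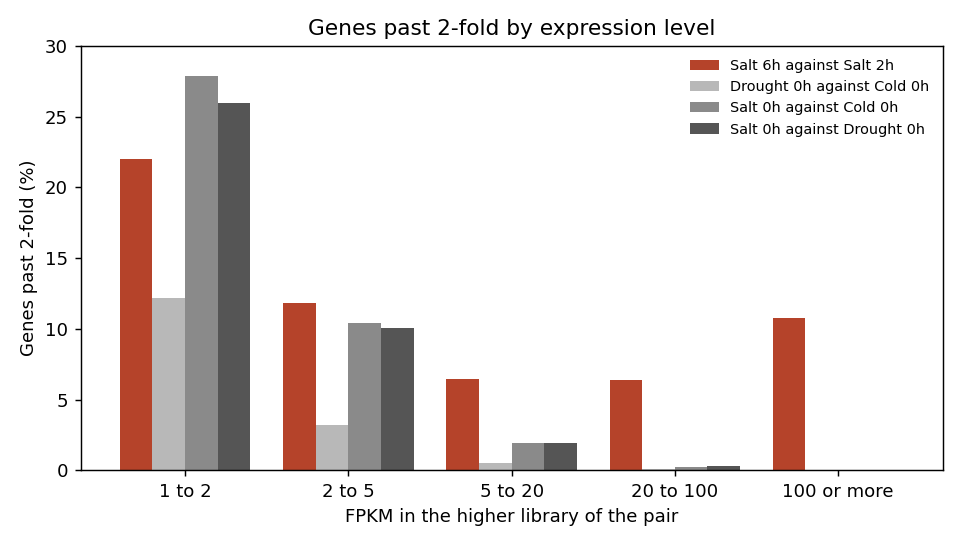
Percentage of genes past 2-fold in either direction (vertical axis) in 5 classes of FPKM in the higher library of the pair (horizontal axis), for the salt step (red) and for the 3 pairs of 0 h libraries (greys). The salt step lies within the range of the 0 h pairs at 1 to 2 FPKM and above all of them from 2 FPKM upward. At 2 to 5 FPKM it is close to the highest pair, and at 100 FPKM or more it is 10.8% against 0%.

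For abundant genes, the spread of the step was also wider in the middle of the distribution. The robust standard deviation of log2 ratios at 20 FPKM or more was 0.42 in the step and 0.08, 0.16 and 0.16 in the 0 h pairs, with a typical counting error of 0.05 in the step. For drought and cold from 2 h to 6 h it was 0.72 and 0.33, so by this measure the salt step lay between those of the other stresses. By the share of genes past 2-fold the salt step was the smallest, with 9.86% against 25.9% in drought and 11% in cold. Gene by gene, the step was larger than the log2 range over the 3 libraries at 0 h in 857 of the 1175 higher genes (72.9%) and 890 of the 1080 lower genes (82.4%), against 53.3% of all 22873 genes. At 20 FPKM or more, this held for 187 of 195 higher and 251 of 253 lower genes, against 4390 of all 6293 genes (69.8%). The median log2 range at 0 h was 0.15 over all genes of that level. A called gene has a step of at least 2-fold by the rule, so high shares among called genes are in part built in. In this comparison 595 genes that were at 0 in only 1 or 2 of the 0 h libraries had no finite range and did not count as larger, while the 213 genes at 0 in all 3 had a range of 0. Of these 213 genes, 57 (26.8%) were higher and 53 (24.9%) lower in the step, against 5.14% and 4.72% of all genes, but a gene at 0 at 0 h entered only through the salt library where it was high.

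Transcript length moved with the step to a small extent. Among the 1580 abundant genes with the shortest transcripts (72 to 1080 bp) the median log2 ratio was -0.10, and among the 1573 with the longest (2329 to 13380 bp) it was 0.14. The drought step had medians of -0.14 and 0.12 among its own shortest and longest transcripts, split likewise, and Salt_0h against Cold_0h had -0.11 and 0.05. The median transcript was 885 bp in the higher genes, 1132 bp in the lower genes and 1623 bp in all genes. The part of transcript length in the counts of changed genes was not tested. A class of 176 identifiers with the prefix EPlMTRG, with a median length of 103 bp, held 55 higher and 44 lower genes (31.2% and 25%). The 8 chromosomes held 4.26% to 5.95% higher and 3.96% to 5.33% lower genes. The higher FPKM of the pair had a median of 2.48 in the EPlMTRG class and 7.32 to 9.36 on the chromosomes. The same FPKM rests on fewer fragments in a shorter transcript, so calls in the EPlMTRG class carry a larger counting error. The part of low fragment numbers in its shares was not tested.

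The next question was what became of the changes already present at 2 h. Against Salt_0h, 2768 genes were raised at Salt_2h and 3405 lowered at least 2-fold, which were 11.8% and 14.5%, or 26.4% together, of the 23411 genes that reached 1 FPKM in either of those libraries. The median log2 ratio over all genes for Salt_2h against Salt_0h was -0.16, and after scaling by the median ratio 3219 genes were raised and 2705 lowered, so which direction was the more frequent at 2 h depended on the scaling. For Salt_6h against Salt_0h, 30.8% of genes passed, 14.4% higher and 16.4% lower. A 2 h change was said to persist when the gene was still at least 2-fold from Salt_0h at Salt_6h in the same direction, to grow when it had also moved a further 2-fold from Salt_2h, to return when it was within 2-fold of Salt_0h, and to reverse when it was at least 2-fold to the other side. The FPKM minimum of 1 held for the change at 2 h, and the later ratios had no minimum. The comparisons share libraries, since Salt_2h enters both the first change and the step, and Salt_0h enters both changes from 0 h.

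Most changes persisted. Of the 2768 raised genes, 2015 (72.8%) persisted at 6 h, 533 (19.3%) returned, 193 (6.97%) grew and 27 (0.975%) reversed. Of the 3405 lowered genes, 2243 (65.9%) persisted, 931 (27.3%) returned, 225 (6.61%) grew further down and 6 (0.176%) reversed. Part of these rested on low values. Under 1 FPKM at both 6 h and 0 h were 187 of the raised genes that persisted, 94 that returned and 14 that reversed. Under 1 FPKM at both 6 h and 2 h were 660 of the lowered genes that persisted, 108 that returned and 120 that grew. Of the raised genes that persisted, 405 were at 0 in Salt_0h, where any fragment at 6 h counts as persistence. Among the 785 raised and 542 lowered genes that reached 20 FPKM, persistence was 71.5% and 80.4%, return 22.4% and 14.9%. When the 2 h change was required against each of the 3 libraries at 0 h, fewer genes counted as changed in both directions. Of those raised, 140 then grew, 1497 persisted, 340 returned and 21 reversed. Of those lowered, 110 grew, 1425 persisted, 389 returned and 4 reversed, so persistence was still the most frequent state in both.

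The classes were then followed over 0, 2, 6 and 12 h. They were sorted by the values at 0, 2 and 6 h, so their course to 6 h follows from the rule. Only the 12 h values did not enter it. The 193 raised genes that grew had a median FPKM of 1.17, 6.09, 16.1 and 19.6 at these times. The raised genes that persisted had 1.18, 5.65, 5.47 and 5.69, close to level after 2 h. The raised genes that returned had 3.05, 9.69, 4.77 and 3.92, a pulse at 2 h whose median stayed above the 0 h value. The lowered genes that persisted had median FPKM values of 6.08, 1.93, 1.88 and 1.29, and those that grew further down 3.31, 0.895, 0.255 and 0.343. The 27 raised genes that reversed had a median FPKM of 0.915, 5.22, 0.271 and 0.447, so their median was below its starting level at 6 h and at 12 h, and 8 of the 27 had reached 20 FPKM at 2 h or 0 h. The 6 lowered genes that reversed had medians of 3.86, 0.899, 11.3 and 4.22.

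**Figure D3:**
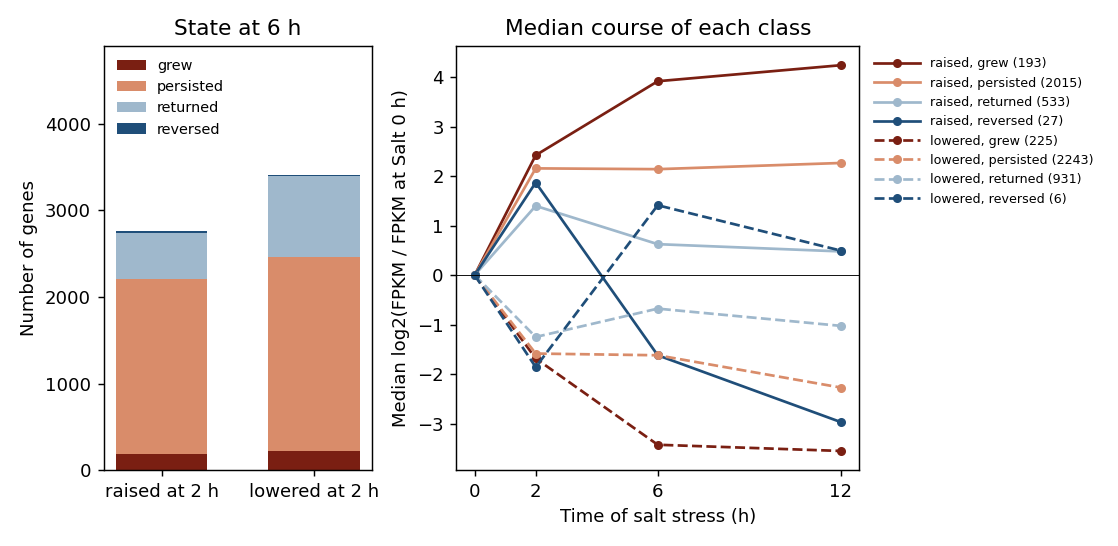
Left, number of genes raised or lowered at least 2-fold at Salt_2h against Salt_0h, split by their state at Salt_6h. Right, median log2 ratio to Salt_0h (vertical axis) of each class at 0, 2, 6 and 12 h of salt stress (horizontal axis), with solid lines for raised and dashed lines for lowered genes; the raised genes that grew reach 3.92 at 6 h and 4.24 at 12 h, and those that returned 0.62 and 0.48.

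Return was more frequent among small changes. Of the raised genes, 32.0% of those raised 2- to 3-fold had returned at 6 h, 17.1% of those raised 3- to 8-fold and 5.82% of those raised 8-fold or more, where 730 of 859 genes persisted. Of the lowered genes, 37.0%, 15.6% and 9.09% of the same size classes had returned, and of the 275 lowered 8-fold or more 219 persisted. A change just past 2-fold has the shortest way back over the threshold, so this order is in part built into the rule. A step of at least 2-fold back towards the starting level was seen in 235 of the 533 raised and 236 of the 931 lowered genes that returned, with an FPKM of at least 1 at 6 h or 2 h.

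Seen from the step itself, the lower and the higher genes were set against their histories at 2 h. Of the 1080 genes that were lower at 6 h, 518 (48.0%) had been raised at 2 h, 105 (9.72%) had been lowered and 457 (42.3%) were within 2-fold. Of the 1175 higher genes, 193 (16.4%) had been raised at 2 h, 291 (24.8%) lowered and 366 (31.1%) were within 2-fold, while 325 (27.7%) were under 1 FPKM at both 2 h and 0 h and were not called there. A lower gene had to reach 1 FPKM at Salt_2h, so this last class could hold no lower gene. The shares of the higher and the lower genes are therefore not directly comparable. The 366 had a median FPKM of 3.47, 3.31, 8.18 and 9.84 at 0, 2, 6 and 12 h, a late increase that was still there at 12 h. The 325 had a median FPKM of 0.0726 at 0 h, 0.458 at 2 h and 1.22 at 12 h. The 518 had 0.536, 5.35, 1.31 and 1.27, a maximum at 2 h with later medians still above that at 0 h, and 256 of them remained at least 2-fold above Salt_0h at 6 h. The 457 late-lowered genes had 5.21, 5.18, 1.86 and 1.61. The Salt_2h value enters the change at 2 h and the step with opposite signs, so these histories and the steps are not independent measurements.

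Of the 25 *MtSWEET* genes, 11 had an FPKM of at least 1 in Salt_6h or Salt_2h, and among these 2 were higher, 1 was lower (27.3% past 2-fold, against 9.86% of all genes) and 8 were within 2-fold. Their median log2 ratio was 0.11, against 0.06 for all genes. The other 14 did not pass 0.737 FPKM or 18 fragments in either library. The 11 genes are given by their clades, groups of related sequence within the family.

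*MtSWEET16* (MTR_2g436310, chromosome 2, 1046 bp), the clade IV member, was the one that fell. Its relatives in *Arabidopsis* lie in the vacuole membrane and carry fructose and other sugars. In the study's yeast assays *MtSWEET16* itself allowed uptake of mannose and sucrose, but not of fructose. The primers with which this transcript was measured by qRT-PCR in the study, and the forward primer that starts its cloned coding sequence, are shown because they define the transcript; capitals mark the start codon, and the 6 bases before it were added for cloning.
MtSWEET16 qRT-PCR forward: ggctcacctcttgctgtcat
MtSWEET16 qRT-PCR reverse: tataacaaccaaacgccgcc
MtSWEET16 coding start: actagtATGgcagatccaagtttc

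The FPKM of *MtSWEET16* was 11.8, 29.2, 8.82 and 2.49 at 0, 2, 6 and 12 h of salt, from 183, 730, 211 and 39 fragments. It was thus highest at 2 h and, at 6 h, below each of the 0 h libraries, which held 11.8 to 16.3 FPKM. The step was 3.31-fold down, a log2 ratio of -1.73 (95% interval -1.95 to -1.50), larger than the log2 range of 0.47 at 0 h. Since Salt_6h was within 2-fold of Salt_0h (log2 ratio -0.41), its rise at 2 h (log2 ratio 1.31) returned. That rise passed 2-fold against Salt_0h only. Cold_0h and Drought_0h held 15.7 and 16.3 FPKM, and the 2 h value was within 2-fold of both. The gene was also lower in the drought step, with 1.79 FPKM at 6 h and 9.73 FPKM at 2 h, and in the cold step, with 7.45 FPKM at 6 h and 17.4 FPKM at 2 h. Only under salt was its 2 h value raised past 2-fold of the 0 h library of its series, and this difference between the stresses was not tested.

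Among the clade III genes, whose relatives in *Arabidopsis* mainly carry sucrose, *MtSWEET9b* (MTR_7g007490, chromosome 7, 829 bp) was the member past 2-fold. The *Arabidopsis* gene of the same number acts in nectar secretion. In clade II, whose relatives mainly carry hexoses, *MtSWEET7* (MTR_8g099730, chromosome 8, 771 bp) passed. In the study's yeast assays *MtSWEET7* allowed uptake of glucose, galactose, mannose and sucrose, but not of fructose. The starts of the cloned coding sequences of *MtSWEET9b* and *MtSWEET7* are shown, with the start codon in capitals and the 6 added bases before it.
MtSWEET9b coding start: gaattcATGttttccttttctgat
MtSWEET7 coding start: gaattcATGggagaagagcttgga

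*MtSWEET9b* had 0.0811, 1.21, 3.75 and 6.29 FPKM at 0, 2, 6 and 12 h of salt, from 1, 24, 71 and 78 fragments, so each salt library was above the one before it. The log2 ratio of the step was 1.63 (95% interval 0.94 to 2.36), or 3.09-fold, and the gene belonged to the raised genes that grew. Its values at 0 h, 0.0745 to 0.341 FPKM from 1 to 5 fragments, spanned a log2 range of 2.19, wider than the step. In the drought step it was at 45.1 FPKM at 6 h and 0.966 FPKM at 2 h (log2 ratio 5.54), and in cold it stayed under 1 FPKM.

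*MtSWEET7* had 0, 0.271, 1.30 and 1.21 FPKM at 0, 2, 6 and 12 h, from 0, 5, 23 and 14 fragments. Its log2 ratio in the step was 2.27 (95% interval 0.84 to 4.02), and at 6 h it was at least 4.99-fold higher than the level of 3 fragments in Salt_0h. With a pseudocount of 1 the log2 ratio was 0.86 and no longer passed 2-fold. The gene was thus near or under the lower bound of the rule in all salt libraries, and Drought_0h and Cold_0h held 0.220 and 0.240 FPKM, close to the Salt_2h value. The drought values were 0.788 FPKM at 6 h and 0.0611 FPKM at 2 h, both under 1 FPKM.

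The other clade III genes stayed within 2-fold in the step. *MtSWEET13* (MTR_3g098910) was at 55.8, 88.1, 148 and 76.7 FPKM at 0, 2, 6 and 12 h, with a step of 0.74 in log2 (95% interval 0.68 to 0.81). Neither the change to 2 h nor the step passed 2-fold, but Salt_6h against Salt_0h did, with a log2 ratio of 1.40. *MtSWEET12* (MTR_8g096320) had 74.2, 41.9, 39.8 and 56.7 FPKM, a difference reached by 2 h and hardly altered by the step (log2 ratio -0.08, 95% interval -0.17 to 0.02). *MtSWEET14* (MTR_8g096310) had a log2 ratio of -0.37 (95% interval -0.55 to -0.19). *MtSWEET15c* (MTR_7g405730) held 0.949, 2.29, 2.47 and 0.413 FPKM at the 4 times, a 2 h rise that persisted to 6 h and was gone at 12 h. Its 0 h libraries ran from 0.949 to 3.34 FPKM and so held the 2 h value within their range.

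In clade I, *MtSWEET3c* (MTR_1g028460) had a lower value at each later time, with 14.0, 6.27, 3.47 and 1.57 FPKM at 0, 2, 6 and 12 h. Its step of -0.85 in log2 (95% interval -1.22 to -0.49) did not pass 2-fold, and its fall at 2 h persisted, with a log2 ratio of -2.01 for Salt_6h against Salt_0h. *MtSWEET2a* (MTR_8g042490) had 6.28, 5.20, 2.90 and 1.64 FPKM, with a step of -0.84 (95% interval -1.27 to -0.42) and a log2 ratio of -1.12 for Salt_6h against Salt_0h. Its Cold_0h and Drought_0h values were 5.32 and 4.10 FPKM, and the 6 h value was within 2-fold of both. *MtSWEET1a* (MTR_1g029380) was at 1.20, 2.28, 2.79 and 15.6 FPKM, so its main increase came after 6 h (step 0.29, 95% interval -0.23 to 0.82). *MtSWEET2b* (MTR_2g073190) had a step of 0.25 (95% interval 0.13 to 0.36). *ACTIN* (MTR_3g095530), the reference gene of the qRT-PCR, had 202 FPKM in Salt_6h and 228 FPKM in Salt_2h, with a log2 ratio of -0.18 (95% interval -0.21 to -0.15).

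**Figure D4:**
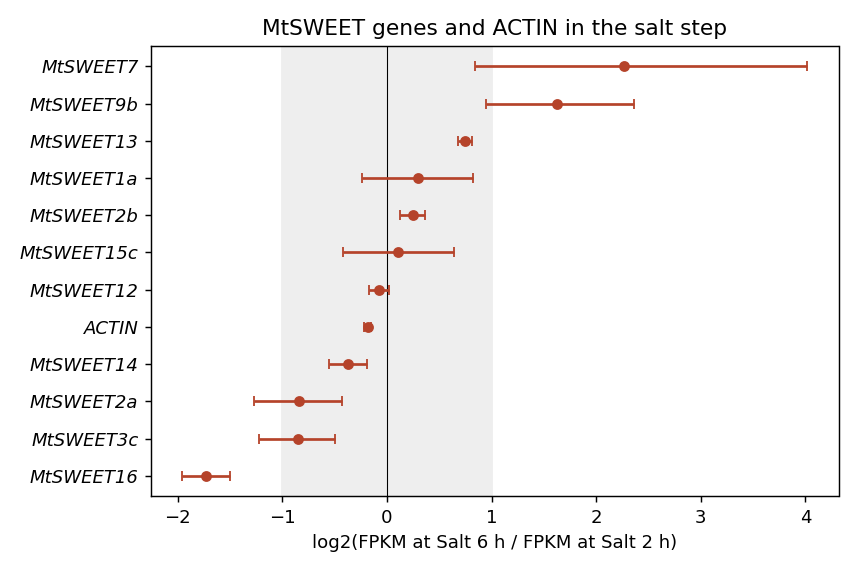
Log2 ratio of FPKM at Salt_6h over Salt_2h (horizontal axis) for the 11 *MtSWEET* genes that met the rule and for *ACTIN* (vertical axis), 1 library a side. Bars are 95% intervals from fragment numbers (counting error only) and the grey band is the range within 2-fold; *MtSWEET7* and *MtSWEET9b* lie above it, and *MtSWEET16* below it at -1.73.

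The largest ratios of the step belonged to identifiers without a name in the files, 2 in each direction. MTR_4g029380 (171 bp) had 9.46 FPKM from 37 fragments in Salt_6h and 0.245 FPKM from 1 fragment in Salt_2h, a log2 ratio of 5.27 (95% interval 2.71 to 10.62). Its Salt_0h value was 16.1 FPKM, so by the rule its loss at 2 h returned, and Salt_12h held 0 fragments. Cold_0h and Drought_0h held 31.8 and 24.8 FPKM, and the 6 h value was more than 2-fold below both. MTR_4g066210 (1890 bp) had 6.32 FPKM from 273 fragments in Salt_6h and 0.177 FPKM from 8 fragments in Salt_2h, a log2 ratio of 5.16 (95% interval 4.16 to 6.38), and reached 29.0 FPKM at 12 h. Its 0 h libraries held 0.356 to 0.538 FPKM, so this was a late rise. MTR_1g027490 (2142 bp) had 0.0204 FPKM from 1 fragment in Salt_6h and 1.86 FPKM from 95 fragments in Salt_2h (log2 ratio -6.51, 95% interval -11.82 to -3.99), and was at 0 in all 3 libraries at 0 h. MTR_7g114420 (807 bp) had 0.108 FPKM from 2 fragments in Salt_6h and 8.45 FPKM from 163 fragments in Salt_2h (log2 ratio -6.28, 95% interval -9.34 to -4.41). Both were pulses seen at 2 h. By the rule above MTR_1g027490 nevertheless counted as persisting, with 1 fragment in Salt_6h and 0 in Salt_0h.

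Genes with neighbouring identifiers were compared next. Over 12350 pairs of neighbours that were both measured, the gene after a higher gene was also higher in 76 of 590 cases (12.9%), against 4.85% over all pairs, and lower in 13. The gene after a lower gene was also lower in 82 of 510 cases (16.1%), against 4.06% over all pairs, and higher in 23. Runs of at least 4 neighbours in 1 direction were found 8 times, and all 4 higher runs were on chromosome 4. Those starting at MTR_4g050840, MTR_4g051097 and MTR_4g051350 had close identifiers. In each of these the summed FPKM at 0 h rose from Cold_0h through Drought_0h to Salt_0h, so they may not be separate runs. How reads shared between similar neighbours were counted is not given in the sources used here, so the members of a run may not be separate measurements.

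The most abundant run was 4 lower genes on chromosome 6, whose summed FPKM was 2219, 1128, 311 and 186 at 0, 2, 6 and 12 h of salt. In all 4 the step was larger than the range at 0 h, where the sums of the 3 libraries were 2219 to 2620. The same genes had 828 FPKM at 6 h and 2248 FPKM at 2 h of drought, and 476 FPKM at 6 h and 1350 FPKM at 2 h of cold, so the sums were lower at 6 h than at 2 h in all 3 stresses. A run of 6 higher genes on chromosome 4 had sums of 118, 31.8, 110 and 255 FPKM at 0, 2, 6 and 12 h of salt. Its sums at 0 h were 24.6 FPKM in Cold_0h, 56.6 FPKM in Drought_0h and 118 FPKM in Salt_0h, and in only 1 of the 6 genes was the step larger than that range. A run of 4 lower genes on chromosome 2 had sums of 5.16, 88.3, 23.2 and 26.1 FPKM at the 4 salt times, a pulse at 2 h above 0 h sums of 5.16 to 5.45 FPKM.

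The drought and cold steps share no library with the salt step and show which of its genes moved over the same hours elsewhere. From 2 h to 6 h of drought, 9.05% of 22851 genes were higher and 16.9% lower, 25.9% together. Of the 1175 genes that were higher in the salt step, 917 could be tested in drought, and 409 of these (44.6%) were higher there and 128 (14.0%) lower. Over all genes of the salt step, 8.34% were higher in drought and 15.3% lower. Of the 1080 genes lower in the salt step, 893 could be tested, and 436 (48.8%) were lower in drought and 65 (7.28%) higher. The shared genes were 19.8% of the 2067 genes higher in the drought step and 11.3% of the 3857 lower ones. At 20 FPKM or more, 135 of 195 higher genes (69.2%) were higher in drought, against 9.90% of all genes of that level, and 114 of 251 lower genes (45.4%) were lower, against 8.97%.

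The cold step was compared in the same way. From 2 h to 6 h of cold, 4.35% of 22217 genes were higher and 6.69% lower, 11% together. Of 804 higher genes of the salt step that could be tested, 84 (10.4%) were higher in cold and 166 (20.6%) were lower, so more of them went the other way. Of 843 lower genes, 149 (17.7%) were lower in cold and 81 (9.61%) higher. Over all genes of the salt step, 3.70% were higher in cold and 6.01% lower. In all 3 stresses 33 genes were higher and 55 lower. Past 2-fold in neither of the other steps were 523 higher genes (44.5%) and 446 lower genes (41.3%), which include genes under 1 FPKM there. The matching shares over all genes were not computed for the counts over 3 stresses. These counts therefore do not show how much of the step was particular to salt.

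**Figure D5:**
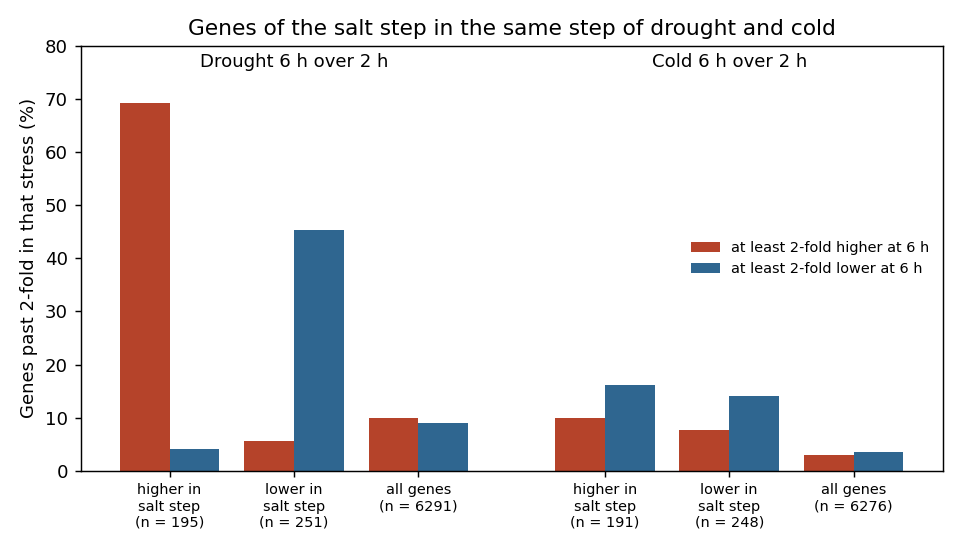
Percentage of genes at least 2-fold higher (red) or lower (blue) at 6 h than at 2 h of drought (left) and cold (right), on the vertical axis, for the genes higher in the salt step, those lower in it and all genes, each at 20 FPKM or more in the salt step and with n below the bars. In drought 69.2% of the higher genes were higher too, whereas in cold 9.95% were higher and 16.2% lower.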

How the data were processed

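RNA of seedlings was measured in 1 library for each of 12 conditions. Per the study's methods, the alignment was made with Tophat on genome build Mt4.0v1 and expression was estimated with StringTie; the authors deposited 1 FPKM value per gene and library. The labels describe a 3' tag library kit and their processing notes name HTSeq, whereas the mapping statistics list read pairs. This can affect levels between genes, and ratios of 1 gene less so. Fold changes were ratios of deposited FPKM without a pseudocount, called at 2-fold (2 or 0.5) for genes that reached 1 FPKM in either library. A gene at 0 in 1 library was called when the other had at least 1. Whole fragments were recovered from FPKM, a whole transcript length and the mapped pairs, and gave 95% Clopper-Pearson intervals. The floor was 3 fragments. No count model was fitted, because FPKM was the deposited unit.

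The rule named the *MtSWEET* genes with an FPKM of at least 1, *ACTIN*, and, of genes without annotation, the 2 with the largest rise and the 2 with the largest fall. In the RefSeq table (assembly MtrunA17r5.0-ANR) 0 identifiers had a match, so lists of other pathways, cell type markers and promoters were not analysed here. The members and lists were chosen with earlier results of these data known. Primer sequences were taken from the study's supplementary tables. The steps were tested on simulated data. Calculations used numpy 2.4.6 and scipy 1.17.1, tables pandas 2.3.3 and plots matplotlib 3.10.9, all under Python 3.11.15. Alternatives were an FPKM minimum of 5 or none, a pseudocount of 1, thresholds of 1.5 and 3, median-ratio scaling, TPM, at least 10 fragments and the mean of the 3 libraries at 0 h. Added after the data were seen were a step larger than the 0 h range, a 2 h change against each 0 h library, and, for the genes changed at 2 h, an FPKM of at least 1 at Salt_2h or Salt_6h or in each comparison with Salt_6h.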

Additional observations from a re-analysis of the deposited data

Results flagged for a closer look

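For 3 of the identifiers with the largest ratios, the step from 2 h to 6 h went one way under salt and the other way, also past 2-fold, under another stress. The difference between the stresses was not tested in any of them, since each condition had 1 library. MTR_4g029380 had log2 ratios of 5.27 and -1.96 under salt and under drought, with 2.91 FPKM at 6 h and 11.3 FPKM at 2 h of drought. MTR_4g066210 had log2 ratios of 5.16 and -4.77 under salt and under cold, with 0.132 FPKM at 6 h and 3.61 FPKM at 2 h of cold. MTR_7g114420 had log2 ratios of -6.28 and 1.09 under salt and under cold, with 3.88 FPKM at 6 h and 1.82 FPKM at 2 h of cold.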

How the results depend on the processing

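The counts moved with the filter, the threshold and the pseudocount. In each group below, the order is genes higher and lower in the step, then raised genes that grew, persisted, returned and reversed, then lowered genes that grew, persisted, returned and reversed, and counts within 1.5 times of the reported one are not listed. With no filter the counts were 4661, 4368, 1243, 4599, 2705 and 55, then 421 lowered genes that grew and 42 that reversed. With an FPKM of at least 5 they were 480, 527, 103, 1054, 342 and 14, then 84, 1256, 446 and 2 for the lowered genes. With a pseudocount of 1 they were 564 and 597, then 122 raised genes that grew and 6 that reversed, and 36, 1397, 585 and 2 lowered genes. At 1.5-fold they were 2985 and 2529, then 694 raised genes that grew and 90 that reversed, and 833, 4095, 1431 and 50 lowered genes. At 3-fold they were 446 and 471, then 46 raised genes that grew, 1287 that persisted and 10 that reversed, and 79, 875, 503 and 1 lowered genes. With the mean of the 3 libraries at 0 h, 10 lowered genes reversed. When the 2 h change was required against each 0 h library, 340 raised genes returned, and 110 lowered genes grew, 1425 persisted and 389 returned. With an FPKM of at least 1 also in the comparisons with Salt_6h, 13 raised genes reversed and 105 lowered genes grew, and an FPKM of at least 1 at Salt_2h or Salt_6h also left 105 that grew. Of 114 counts under alternatives, 63 were within 1.5 times of the reported one, among them all under median-ratio scaling, TPM and at least 10 fragments. Filters and thresholds admit more or fewer genes by construction, and the cause of the other differences was not tested. Of the genes higher or lower in the step, 52.1% were higher as deposited, 48.2% after median-ratio scaling and 58.7% as TPM. Of 48 log2 ratios of named genes under alternatives, 0 changed direction, 43 stayed inside their counting interval and 1, *MtSWEET7* with a pseudocount of 1, no longer passed 2-fold. No paired analysis was possible because each condition had 1 library. Below about 2 FPKM the step could not be told from the spread between the 0 h libraries. From 2 to 5 FPKM its share of 11.8% was only slightly above that of Salt_0h against Cold_0h (10.4%) and against Drought_0h (10.0%).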
